A study of Mus musculus with 32 samples.

Results

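Sterol synthesis and its control by SREBP were examined through 32 genes, found by symbol among the 53558 genes named in each deposited expression file. All 32 were present, and all passed the filter on low counts in every comparison. They comprise 7 genes of the mevalonate pathway, 11 genes that carry squalene to cholesterol, 5 genes of SREBP and its control, 5 genes of uptake, transport and storage, and 4 genes of LXR and efflux. The mevalonate and squalene sets are together called the 18 enzymes.

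Cells build cholesterol from acetyl-CoA through mevalonate, farnesyl diphosphate and squalene. When sterol in the endoplasmic reticulum is low, SCAP escorts the SREBP precursors to the Golgi, where they are cut to release transcription factors that raise the genes of synthesis, and INSIG proteins hold the complex back when sterol is ample. High sterol instead engages LXR, which raises the efflux transporters ABCA1 and ABCG1. Alveolar type II (ATII) cells make lung surfactant, of which cholesterol is a part.

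RNA was sequenced from neoplastic cells sorted from mouse lung adenocarcinomas that were initiated with Lenti-Cre. KT mice carried the Rosa26LSL-tdTomato reporter, kept wild-type Lkb1 (gene symbol Stk11, a tumor suppressor kinase) and were not treated (4 libraries). All other mice also carried Lkb1XTR/XTR, an allele that Cre silences and that the recombinase FLPo-ERT2 turns back on once tamoxifen is given. Non-restored tumors came from FLPo-ERT2 mice given corn oil vehicle (6 libraries) or from mice without FLPo-ERT2 given tamoxifen (4 libraries), and restored tumors came from FLPo-ERT2 mice given tamoxifen (7 libraries). Tamoxifen was used in 4 mg doses for 2 weeks, and these tumors had grown for 24 to 27 weeks. Trp53-deficient tumors came from the same designs with Trp53flox/flox added and had grown for 16 to 19 weeks. They gave 7 non-restored libraries, of which those with a shared animal number in their titles were summed, leaving 4 units, and 4 restored libraries. Of these units 2 join 5 libraries and the other 2 are libraries with titles of their own, taken here as 1 animal each. Trp53 status and tumor age therefore cannot be told apart, and all restored libraries were from females. The study describes fewer mice than there are restored and non-restored Trp53 wild-type libraries, so some of these libraries share a mouse. The labels do not say which, and p-values and SDs, which treat each library as independent, are therefore too small to stand for the spread between mice.

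Library totals ran from 1302482 to 5943951 expected counts, with a median of 2861407. Stk11 was at most 1.1 CPM (counts scaled for library size) in every Trp53 wild-type non-restored library and between 11.7 and 22.5 CPM in the restored libraries, and Trp53 was between 1.4 and 4.9 CPM in the Trp53-deficient animals and at least 11.8 CPM elsewhere. The labels and the targeted genes therefore matched. Non-restored library 8 stood apart, with 7129 summed CPM of 12 ATII markers where the median of its group was 59217. The 14 macrophage markers summed to 16.8 to 1697 CPM over the Trp53 wild-type libraries, and restored libraries 1 and 6 and non-restored library 2 were the highest at 1697, 736 and 512 CPM. In bulk samples fewer cells of a type and less RNA per cell cannot be told apart.

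The stretches before the annotated starts of 4 enzyme genes are shown: Pmvk, which fell on Lkb1 restoration, and Hmgcs1, Msmo1 and Hsd17b7. RefSeq starts (GRCm38.p6) were matched for 26 of the 32 genes. Each run below is 250 bases on the strand of the gene, 5′ to 3′, and ends at the base before the start. Capitals mark CCAAT on either strand (ATTGG on the other), the letters that NF-Y binds, and TCACNCCAC on either strand, a sterol regulatory element core. The motifs do not overlap each other in these runs. CCAAT lies in the first Pmvk run and in the Hmgcs1, Msmo1 and Hsd17b7 runs, and only the Hmgcs1 run holds TCACNCCAC. Pmvk has 2 annotated starts, and the run of the second lies inside the GENCODE span of the gene (chr3:89454541-89469013). The Msmo1 and Hsd17b7 runs lie partly inside theirs, which end at 64733792 and 169969241. These runs are therefore not all upstream of the gene.
Pmvk, chr3:89454291-89454540, plus strand: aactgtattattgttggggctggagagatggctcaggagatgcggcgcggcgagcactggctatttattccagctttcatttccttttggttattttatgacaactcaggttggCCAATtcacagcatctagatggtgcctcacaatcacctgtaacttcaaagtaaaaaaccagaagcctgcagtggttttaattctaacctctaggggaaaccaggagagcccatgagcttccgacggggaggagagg
Pmvk, second start, chr3:89459321-89459570, plus strand: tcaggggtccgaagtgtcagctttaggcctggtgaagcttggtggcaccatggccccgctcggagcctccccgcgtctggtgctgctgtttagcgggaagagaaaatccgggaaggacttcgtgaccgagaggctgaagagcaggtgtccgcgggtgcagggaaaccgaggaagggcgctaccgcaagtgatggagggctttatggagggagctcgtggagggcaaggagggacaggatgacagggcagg
Hmgcs1, chr13:119690101-119690350, plus strand: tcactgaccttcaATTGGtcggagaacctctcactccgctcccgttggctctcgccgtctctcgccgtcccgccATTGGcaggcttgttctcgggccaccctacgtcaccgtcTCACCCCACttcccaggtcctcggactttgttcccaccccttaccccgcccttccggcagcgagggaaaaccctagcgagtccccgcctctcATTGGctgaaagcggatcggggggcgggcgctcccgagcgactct
Msmo1, chr8:64733579-64733828, minus strand: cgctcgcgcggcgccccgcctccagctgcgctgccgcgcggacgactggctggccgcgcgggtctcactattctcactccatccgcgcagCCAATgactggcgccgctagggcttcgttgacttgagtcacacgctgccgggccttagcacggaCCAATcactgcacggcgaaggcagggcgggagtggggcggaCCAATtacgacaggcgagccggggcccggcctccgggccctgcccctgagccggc
Hsd17b7, chr1:169969206-169969455, minus strand: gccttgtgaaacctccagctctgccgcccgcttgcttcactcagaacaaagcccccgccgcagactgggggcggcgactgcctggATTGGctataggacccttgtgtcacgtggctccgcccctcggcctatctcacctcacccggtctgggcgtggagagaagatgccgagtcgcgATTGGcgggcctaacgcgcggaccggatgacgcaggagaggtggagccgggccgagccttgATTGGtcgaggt
Over windows that reach from 250 bases before to 50 after each start, TCACNCCAC was present in 1.24% of 32851 windows of all genes and in 1 of 37 windows of these genes, that of Hmgcs1. CCAAT was present in 37.41% of all windows and in 21 of the 37, held by 20 of the 26 genes and by 14 of the 15 enzymes matched. The GC box GGGCGG was present in 35.66% of all windows and in 26 of the 37, and in neither Pmvk window. The first Pmvk window held 1 CCAAT and the second, inside the gene, none, while Msmo1 and Hsd17b7 each held 3. A window inside a gene does not show which motifs lie before it. These are matches of letters, and no binding was measured.

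Levels between genes were compared as TPM, which is scaled for gene length. Npc2, the soluble carrier that moves cholesterol out of lysosomes, was the most abundant, at a mean of 1329 ± 258 TPM (SD, n = 29 libraries or animals). Soat1, which esterifies cholesterol for storage, followed at 278 ± 88.6 TPM, and Pmvk, phosphomevalonate kinase, stood at 107 ± 94.4 TPM. Soat1 and Pmvk varied so widely that their ranges met. Among the enzymes, Hmgcs1 (HMG-CoA synthase) stood at 74.4 ± 19.7 TPM and Idi1 (isopentenyl diphosphate isomerase) at 61.6 ± 27.4 TPM, a difference within their spread. The lowest genes were the LXR gene Nr1h3 at 3.53 ± 1.52 TPM, Abcg1 at 2.68 ± 3.70 TPM and the apolipoprotein E receptor gene Lrp8 at 1.12 ± 0.763 TPM. The SREBP genes themselves lay in the middle, Srebf1 at 34.3 ± 12.1 TPM and Srebf2 at 22.3 ± 5.27 TPM.

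**Figure D1:**
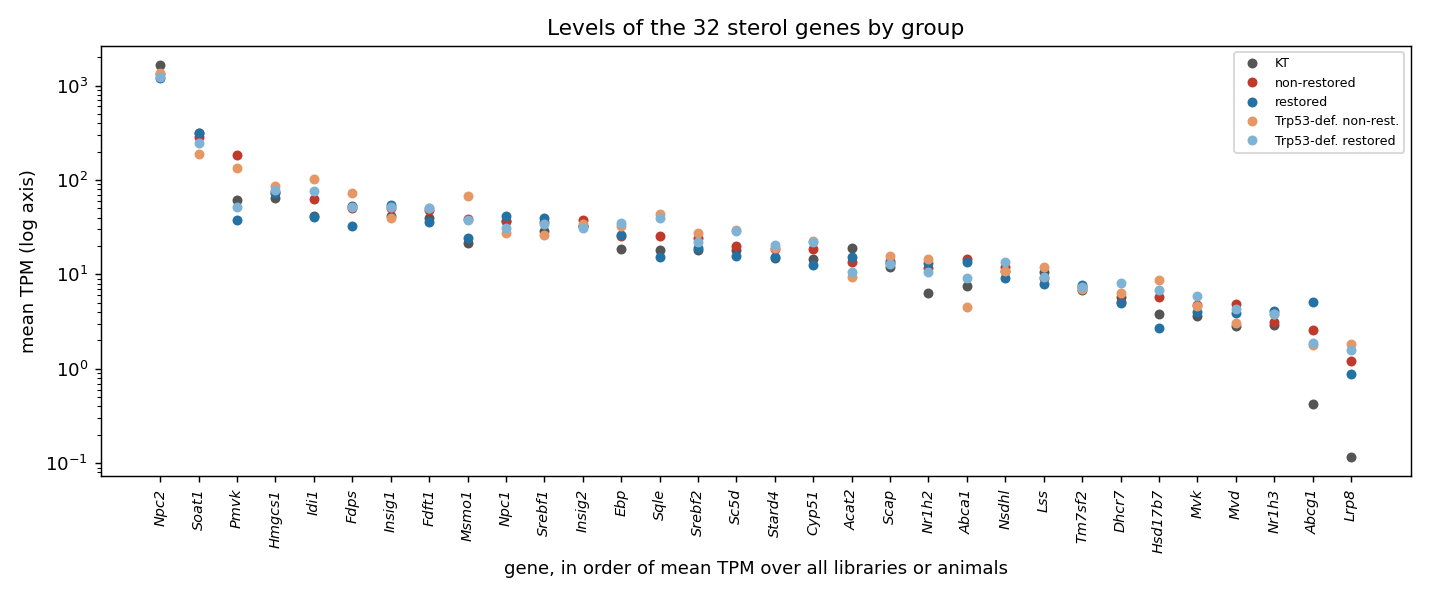
Mean TPM of each of the 32 genes (vertical log axis) in the 5 groups (colors), ordered from left to right by mean TPM over 29 libraries or animals. Npc2 was highest at 1329 TPM and Lrp8 lowest at 1.12 TPM. Pmvk shows a wide spread between groups, from 38.1 TPM in restored to 185 TPM in non-restored tumors.

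The comparison of restored with non-restored tumors asks what 2 weeks of Lkb1 expression changed. Pmvk (ENSMUSG00000027952.16, chr3:89454541-89469013, plus strand, mm10) fell, and no other member of the 32 passed an adjusted p of 0.05, against 1.86% of 12656 genes overall. Lower calls made up 0.893% of all genes tested. Pmvk catalyzes the second phosphorylation of mevalonate. In restored libraries 1 to 7 it stood at 17.6, 30.4, 34.5, 17.6, 12.4, 30.9 and 45.0 CPM. In non-restored libraries the lowest was 17.1, the median 102 and the highest 274 CPM. The lowest was library 8, the library with few ATII markers, and through it the groups overlapped. Without library 8 the non-restored range began at 71.2 CPM, above every restored library. How many of all genes separate with this library left out was not counted, so the separation adds no weight to the test. The log2 fold change was -2.17 (SE 0.40, edgeR quasi-likelihood test, adjusted p = 0.0066), which placed Pmvk at rank 17 by size among the 113 genes that fell.

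Pmvk was low in KT tumors as well, at 57.8, 36.6, 28.3 and 58.9 CPM. Non-restored tumors stood 1.42 log2 above KT (SE 0.49), with adjusted p = 0.093, and this difference passed the test without non-restored library 8 (1.55, adjusted p = 0.0188). The difference of restored from KT tumors did not pass (log2 fold change -0.75, SE 0.48, adjusted p = 0.62). The comparisons share the non-restored or the KT libraries. Within the non-restored group the tamoxifen libraries 2, 7, 8 and 9 stood at 98.1, 274, 17.1 and 150 CPM, and the 6 vehicle libraries ran from 71.2 to 185 CPM. Against the tamoxifen libraries alone, where restored and non-restored tumors both received the drug, the fold change was -2.33 with adjusted p = 0.0624, so the call was lost with 4 libraries, 1 of them library 8. No gene overlaps Pmvk, and its counts were whole numbers in all 32 libraries. Of 7 genes tested within 100 kb of it, 0 passed the adjusted test, 2 had an unadjusted p under 0.05 (Shc1 at -0.42, adjusted p = 0.062, and Pbxip1 at -0.45, adjusted p = 0.23), and all 7 log2 fold changes were negative, from -0.58 to -0.05.

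**Figure D2:**
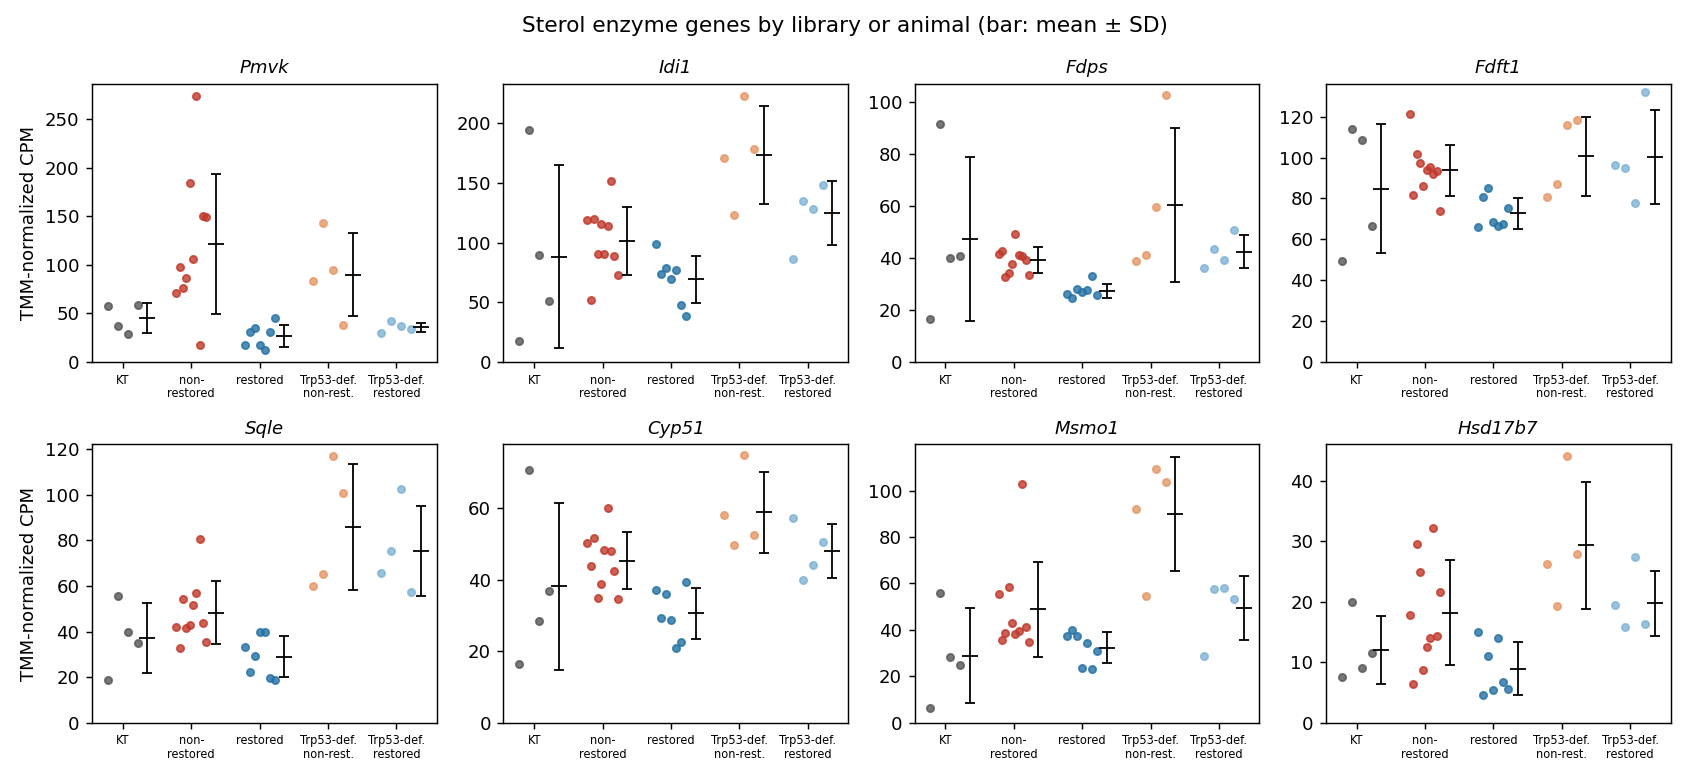
CPM (vertical axes, from 0) of 8 enzyme genes in each library or, for Trp53-deficient non-restored tumors, each animal (points), with mean ± SD (bars) for the 5 groups. Pmvk is low in both restored groups, between 12.4 and 45.0 CPM, and Sqle averages 85.9 and 75.4 CPM in the Trp53-deficient groups.

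Most other enzymes had a lower fitted level in restored tumors without passing the adjusted test. Of the 18 enzymes 13 had a lower fitted level and 5 a higher one, with a median log2 fold change of -0.32, where the median of all 12656 genes was -0.01. At an unadjusted p under 0.05, 7 of the 18 differed, all lower, beside 15.1% of all genes. They were Pmvk and the 6 genes Fdps, Fdft1, Sqle, Cyp51, Msmo1 and Hsd17b7.

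Fdps, which makes farnesyl diphosphate, the branch point to sterols and to protein prenylation, ran from 24.7 to 33.1 CPM (median 26.8) in restored and from 32.6 to 49.4 CPM (median 40.1) in non-restored libraries. Its groups overlapped only at the highest restored library, number 6. The log2 fold change was -0.53 (SE 0.20, adjusted p = 0.20), and a fit of the 2 groups alone gave adjusted p = 0.0131.

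Sqle, squalene epoxidase, a slow step of the pathway, ran from 18.7 to 40.0 CPM (median 29.1) in restored and from 32.9 to 80.7 CPM (median 43.3) in non-restored libraries. The ranges overlapped, and the log2 fold change was -0.76 (SE 0.22, adjusted p = 0.078). With sex as a covariate, since all restored libraries were female, Sqle reached -0.91 (adjusted p = 0.0207), and DESeq2 called it too (adjusted p = 0.0259). Fdft1, squalene synthase, ran from 65.9 to 85.0 CPM in restored and from 73.8 to 121 CPM in non-restored libraries, and its fold change was -0.37 (SE 0.14, adjusted p = 0.18). It was called in 2 of 28 alternatives, with sex as a covariate (-0.51, adjusted p = 0.0251) and in female libraries alone (-0.43, adjusted p = 0.0353).

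Hsd17b7, a sterol ketone reductase, ran from 4.6 to 15.0 CPM in restored and from 6.5 to 32.2 CPM in non-restored libraries, and the fitted difference was -1.07 log2 (SE 0.33, adjusted p = 0.11, called by DESeq2 at adjusted p = 0.0421). Cyp51, lanosterol demethylase, had -0.59 (SE 0.21, adjusted p = 0.17), and Msmo1, which follows it, had -0.62 (SE 0.29, adjusted p = 0.31). The groups of all 3 overlapped. Fdft1 and Cyp51 overlap neighboring genes (Ctsb and Akap9) on the opposite strand, and reads of overlapping genes may be divided between them.

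Hmgcs1, the entry to the pathway, did not pass the test (0.06, SE 0.23, adjusted p = 0.94) at 127 to 287 CPM in restored and 123 to 238 CPM in non-restored libraries. Acat2, cytosolic acetoacetyl-CoA thiolase, leaned higher (0.29, SE 0.21, adjusted p = 0.55), and its counts were not whole in any of the 32 libraries, so part of its reads also matched other genes. Counts were also not whole in 32 libraries for Fdft1, 30 for Hmgcs1 and for Tm7sf2, 28 for Npc1 and 27 for Idi1. The same held in 25 libraries for Scap, 17 for Cyp51, 15 for Fdps and 2 for Srebf1. The sum over the 18 enzymes ran from 543 to 792 CPM in restored and from 710 to 1062 CPM in non-restored libraries. Without Pmvk it ran from 505 to 774 CPM and from 595 to 888 CPM. The ranges overlap in both sums.

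The 9 remaining enzymes had overlapping groups. Idi1 ran from 38.7 to 98.5 CPM (median 73.8) in restored and from 51.6 to 151 CPM (median 102) in non-restored libraries, a fitted difference of -0.57 log2 (SE 0.31, adjusted p = 0.41). Nsdhl, which removes the methyl groups with Msmo1 and Hsd17b7, ran from 5.3 to 20.9 CPM and from 12.4 to 23.6 CPM (-0.36, SE 0.28, adjusted p = 0.60). Sc5d, lathosterol desaturase, ran from 31.6 to 45.0 CPM and from 31.3 to 73.6 CPM (-0.29, SE 0.20, adjusted p = 0.52). For these 3 the fitted level was lower in restored tumors, as it was for Mvk (-0.22), Mvd (-0.26) and Lss (-0.13), the kinase, decarboxylase and cyclase of mevalonate, mevalonate diphosphate and oxidosqualene. Tm7sf2, Ebp and Dhcr7, a reductase, an isomerase and a reductase of late sterols, had 0.18, 0.12 and 0.14. Mvd shares its locus with Gm20388 on the opposite strand, which had a mean of 138.7 counts where Mvd had 15.2, and Tm7sf2 overlaps Vps51 on the same strand, so both levels are uncertain. Beside these values, the 12 ATII markers summed to 48549 to 127962 CPM in restored and 7129 to 84302 CPM in non-restored libraries, with 12 of 12 at a higher fitted level and 0 called, and 12 of 13 proliferation genes tested had a lower fitted level with 0 called. Their part in the enzyme levels was not tested.

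**Figure D3:**
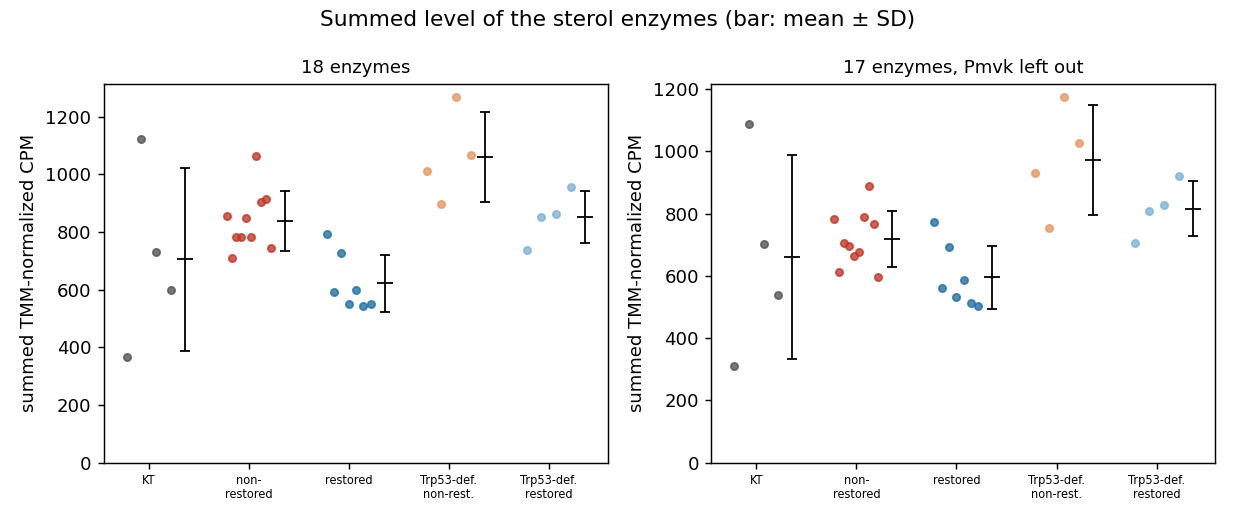
Summed CPM of the 18 enzymes (left) and of the 17 enzymes without Pmvk (right) in each library or animal (points) with mean ± SD (bars), vertical axes from 0. The restored group averaged 622 CPM and the non-restored group 839 CPM over 18 enzymes, while KT libraries spread from 367 to 1124 CPM.

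The genes of SREBP control had small fitted differences. Srebf1, Srebf2, Scap, Insig1 and Insig2 had log2 fold changes from -0.19 to 0.24 between restored and non-restored tumors, and 0 of the 5 had an unadjusted p under 0.05. Srebf2, which encodes the SREBP most tied to sterol synthesis, stood at 41.1 to 85.0 CPM in restored and 48.9 to 76.2 CPM in non-restored libraries (log2 fold change -0.19, SE 0.14, adjusted p = 0.56). Insig1, itself raised by SREBP, stood at 57.2 to 109 CPM and 34.1 to 103 CPM (0.24, SE 0.27, adjusted p = 0.74).

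Uptake, transport and storage genes had fitted differences from -0.44 to 0.37 log2 between restored and non-restored tumors, and 0 of the 5 had an unadjusted p under 0.05. Soat1 ran from 360 to 1240 CPM in restored and from 79.1 to 974 CPM in non-restored libraries (0.37, SE 0.32, adjusted p = 0.64), and its lowest was non-restored library 8. Npc1, the membrane partner of Npc2 in lysosomes, ran from 84.1 to 245 CPM and from 67.0 to 202 CPM (0.21, SE 0.23, adjusted p = 0.74). Npc2 had -0.04 (SE 0.13) and Stard4, a soluble sterol carrier raised by SREBP, had -0.20 (SE 0.17). Groups overlapped for all 5.

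None of the 4 genes of LXR and efflux passed the adjusted test. Abca1 (0.00, SE 0.36) and Nr1h2, which encodes LXR beta (0.09, SE 0.21), had fitted differences near 0. Nr1h3, which encodes LXR alpha, had 0.57 (SE 0.26, adjusted p = 0.29), with 3.9 to 7.2 CPM in restored and 1.6 to 5.2 CPM in non-restored libraries. Abcg1 had 1.04 (SE 0.73, adjusted p = 0.55). Its highest libraries were restored library 1 at 44.4 CPM, non-restored library 2 at 29.0 CPM and restored library 6 at 23.1 CPM, the same 3 libraries with the most macrophage marker RNA. Of the macrophage markers that passed the filter on low counts, 9 of 9 had a higher fitted level in restored tumors (median 1.52, 0 called). The summed markers had medians of 72.3 CPM in restored and 49.7 CPM in non-restored libraries. Their ranges, 22.65 to 1697 CPM and 16.8 to 512 CPM, overlapped, so the 9 higher values do not show a rise across the restored libraries. The part of macrophage RNA in the Abcg1 level was not tested. The highest Abca1 library was non-restored library 9 at 234 CPM, where the macrophage markers summed to 50.1 CPM.

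**Figure D4:**
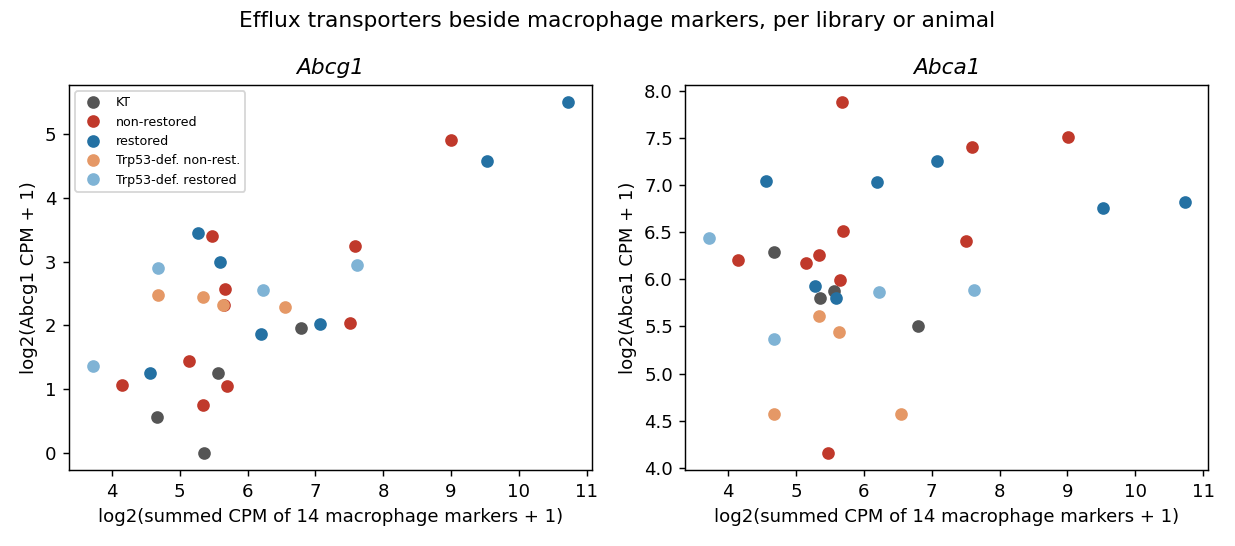
Abcg1 (left) and Abca1 (right) as log2(CPM + 1) on the vertical axis against the summed CPM of 14 macrophage markers as log2(sum + 1), 1 point per library or animal, colored by group. The 3 libraries with the highest Abcg1, at 23.1 to 44.4 CPM, are those with macrophage sums of 512 to 1697 CPM.

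The comparison of non-restored with KT tumors sets silenced against intact Lkb1. KT mice were also untreated and, by the study's methods, received less Lenti-Cre, and neither can be told apart from Lkb1 status. Of the 32 genes 0 passed the adjusted test by edgeR, where 5.88% of all genes did, and 6 had an unadjusted p under 0.05 beside 20.8% of all genes. DESeq2 called 3 of the 32 (Pmvk and Lrp8 higher, Npc2 lower), beside 1070 of 16348 genes. The 4 KT libraries spread widely: KT library 1 was lowest of its group for 14 of the 18 enzymes and KT library 2 highest for 14. Msmo1 had a fitted difference of 0.79 log2 (SE 0.36, adjusted p = 0.22), which was 1.27 and called without KT library 2 (adjusted p = 0.0475), 0.46 without KT library 1 (adjusted p = 0.50) and 0.38 in female libraries alone (adjusted p = 0.71).

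Npc2 stood at 3447 to 4290 CPM in KT and at 1980 to 3573 CPM in non-restored libraries, which gave a fitted difference of -0.46 log2 (SE 0.15, adjusted p = 0.077). Lrp8 had at most 2 counts in any KT library. Over pooled counts, 136 in non-restored and 5 in KT libraries, its rate was 6.37 times higher in non-restored tumors (95% exact interval 2.66 to 19.94, counting error only). The edgeR adjusted p was 0.084. In the wider sterol network, 2 of 13 tested genes of sterol transfer and oxysterol handling passed the adjusted test, both lower in non-restored tumors. They were Gramd1b, which moves cholesterol between membranes (-1.64, adjusted p = 0.0176), and Stard5, a sterol-binding protein (-0.77, adjusted p = 0.0388). Of all 12656 genes tested, 442 passed as lower and 302 as higher. Whether 2 of 13 exceeds that share was not tested. None of 13 fatty acid genes of SREBP-1, 14 isoprenoid-using genes or 12 sterol-sensing and degradation genes passed the adjusted test.

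Restored tumors were also compared with KT tumors, which differed from them in treatment and Lenti-Cre dose too. Of all genes 0.498% passed. By edgeR 0 of the 32 did, and 7 had an unadjusted p under 0.05 beside 10.5% of all genes. DESeq2 called 0 of the 32 and 177 of 15841 genes. Fdps ran from 24.7 to 33.1 CPM in restored libraries and stood at 16.5, 91.6, 40.2 and 40.7 CPM in KT libraries 1 to 4, and the fitted difference was -0.78 log2 (SE 0.25, adjusted p = 0.21). The value rested on single KT libraries: without KT library 2, the high one, it was -0.26 (adjusted p = 0.66), and without KT library 1, the low one, it was called at -1.05 (adjusted p = 0.0235), as it was in female libraries alone (-1.25, adjusted p = 0.0386). Abcg1 had the largest fitted difference, 3.21 (SE 1.22, adjusted p = 0.32), with 0 to 7 counts in the KT libraries. In that comparison 9 of 9 macrophage markers tested had a higher fitted level (median 2.84, 4 at an unadjusted p under 0.05, 0 called). The summed markers had medians of 72.3 CPM in restored and 43.05 CPM in KT libraries, and their ranges, 22.65 to 1697 CPM and 24.4 to 110 CPM, overlapped. The part of these markers in the Abcg1 difference was not tested.

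Restoration in Trp53-deficient tumors was tested over 4 animals and 4 libraries. There 0 of 12518 genes passed the adjusted test (0%), so 0 of the 32 did. Stk11, the gene turned back on, also missed it at a log2 fold change of 5.15 (edgeR adjusted p = 0.0588). Failing the adjusted test here therefore says little about whether a gene changed. At an unadjusted p under 0.05, 4 of the 32 and 747 of all genes differed, and DESeq2 called 26 of 14954 genes and 0 of the 32. Pmvk stood at 83.1, 143, 94.9 and 38.4 CPM in non-restored animals and at 30.2, 41.7, 36.8 and 33.9 CPM in restored libraries. The ranges met only through non-restored animal 4 and restored library 2. The log2 fold change was -1.32 (SE 0.34, unadjusted p = 0.0034, adjusted p = 0.80).

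Msmo1 stood at 91.9, 54.6, 109 and 104 CPM in non-restored and 28.9, 57.6, 57.9 and 53.3 CPM in restored Trp53-deficient tumors (-0.84, SE 0.27, adjusted p = 0.80). The other 2 with an unadjusted p under 0.05 were Dhcr7, the reductase of a final step, at 0.75 (SE 0.29) and Abca1 at 0.85 (SE 0.31). For the difference of the restoration effect between Trp53 backgrounds, 0 of the 32 genes passed by edgeR or DESeq2, 0 had an unadjusted p under 0.05, and 0% of 13705 genes passed by edgeR. For Pmvk the difference of the 2 effects was 0.82 log2 (SE 0.64, unadjusted p = 0.21).

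Between Trp53 backgrounds most enzymes had a higher fitted level in Trp53-deficient tumors. Among restored tumors 17 of 18 enzymes had a higher fitted level (median log2 fold change 0.46, all genes 0.00), and 8 had an unadjusted p under 0.05 beside 15.5% of all genes. Only Sqle (chr15:59315077-59331192, plus strand) passed the adjusted test among the 32, where 0.372% of genes passed and 0.182% passed as higher. Sqle stood at 65.6, 75.4, 103 and 57.6 CPM in Trp53-deficient restored libraries, all above the 18.7 to 40.0 CPM of restored libraries. The log2 fold change was 1.38 (SE 0.24, adjusted p = 0.0052), and without Trp53-deficient restored library 3, the highest, the fold change was 1.197 and the call was lost (adjusted p = 0.0526). DESeq2 called 3 of the 32 as higher, Sqle, Idi1 (0.86, adjusted p = 0.0469) and Cyp51 (0.67, adjusted p = 0.0360). It called 214 of 15952 genes in either direction. Of 2 genes tested within 100 kb of Sqle, 0 passed.

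Hsd17b7 followed at 1.17 (SE 0.37, adjusted p = 0.17) and Idi1 at 0.86 (SE 0.24, adjusted p = 0.11). Hsd17b7 ran from 15.9 to 27.4 CPM in Trp53-deficient restored libraries, all above the 4.6 to 15.0 CPM of restored libraries. Idi1 ran from 86.6 to 149 CPM against 38.7 to 98.5 CPM, which overlap. Fdps ran from 36.3 to 50.6 against 24.7 to 33.1 CPM (0.63, SE 0.19, adjusted p = 0.13). Cyp51 ran from 39.9 to 57.3 against 20.8 to 39.3 CPM (0.66, SE 0.17, adjusted p = 0.094). The groups of Sqle, Hsd17b7, Fdps and Cyp51 thus did not overlap. How many of all genes separate in groups of these sizes was not counted, so the separation adds no weight to the tests. Acat2 was the 1 enzyme with a lower fitted level (-0.56, SE 0.23, adjusted p = 0.26). In the same comparison 12 of 12 ATII markers (median -0.70) and 10 of 10 macrophage markers tested (median -2.57) had a lower fitted level, and 8 of 8 fibroblast markers (median 1.76) and 12 of 14 proliferation genes (median 0.34) a higher one, with 0 called in each list. The macrophage markers summed to 12.2 to 195 CPM (median 49.1) in the Trp53-deficient restored and 22.65 to 1697 CPM (median 72.3) in the restored libraries, which overlap. The fibroblast markers summed to 2.23 to 1542 CPM in the Trp53-deficient restored and 27.4 to 263 CPM in the restored libraries. The part of these lists in the enzyme differences was not tested.

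Among non-restored tumors 13 of 18 enzymes had a higher fitted level in the Trp53-deficient animals (median 0.25, all genes -0.02). By edgeR 0 of the 32 passed, where 0.598% of genes did, and 7 had an unadjusted p under 0.05 beside 17.7% of all genes. DESeq2 called 4 of the 32 (Idi1, Sqle and Msmo1 higher, Abca1 lower), beside 432 of 12774 genes. Sqle stood at 60.0, 65.3, 117 and 101 CPM in the animals, against 32.9 to 57.1 CPM in the non-restored libraries other than library 8, which had 80.7 CPM. Its log2 fold change was 0.83 (SE 0.22, adjusted p = 0.077). Without library 8 the test called 7 of the 32 and 1450 genes in place of 82: Idi1 (0.85), Fdps (0.61), Sqle (0.93) and Msmo1 (1.06) were higher, and Acat2 (-0.56), Abca1 (-1.75) and Soat1 (-0.90) were lower. Library 8 had the highest Sqle and Msmo1 of its group and the lowest Soat1, 79.1 CPM, and Abca1, 16.9 CPM. Summed ATII markers were 9939 to 40062 CPM in the Trp53-deficient non-restored animals and 37391 to 84302 CPM in the non-restored libraries other than library 8, and their part in these differences was not tested.

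Outside the enzymes the Trp53 comparisons were mixed. The 5 genes of SREBP control ran from -0.53 to 0.23 log2 among non-restored and from -0.53 to 0.21 log2 among restored tumors, with Srebf1 lowest in both (SE 0.26 and 0.28) and 0 of 5 at an unadjusted p under 0.05 in either. Srebf1, which encodes the SREBP most tied to fatty acid synthesis, averaged 63.2 ± 13.8 CPM (SD, n = 4) in Trp53-deficient and 91.1 ± 35.6 CPM (SD, n = 10) in Trp53 wild-type non-restored tumors. The companion list of 13 SREBP-1 fatty acid genes had 10 at a lower fitted level in Trp53-deficient non-restored tumors (median -0.61, 8 at an unadjusted p under 0.05 where 17.7% of all genes were, 0 called), while 13 of the 18 sterol enzymes had a higher one. Among restored tumors 9 of those 13 had a lower fitted level (median -0.27, 0 called). Abca1 ran from 22.7 to 47.8 CPM in Trp53-deficient and from 16.9 to 234 CPM in Trp53 wild-type non-restored tumors (-1.62, SE 0.47, adjusted p = 0.096), and the only library below the Trp53-deficient range was library 8.

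**Figure D5:**
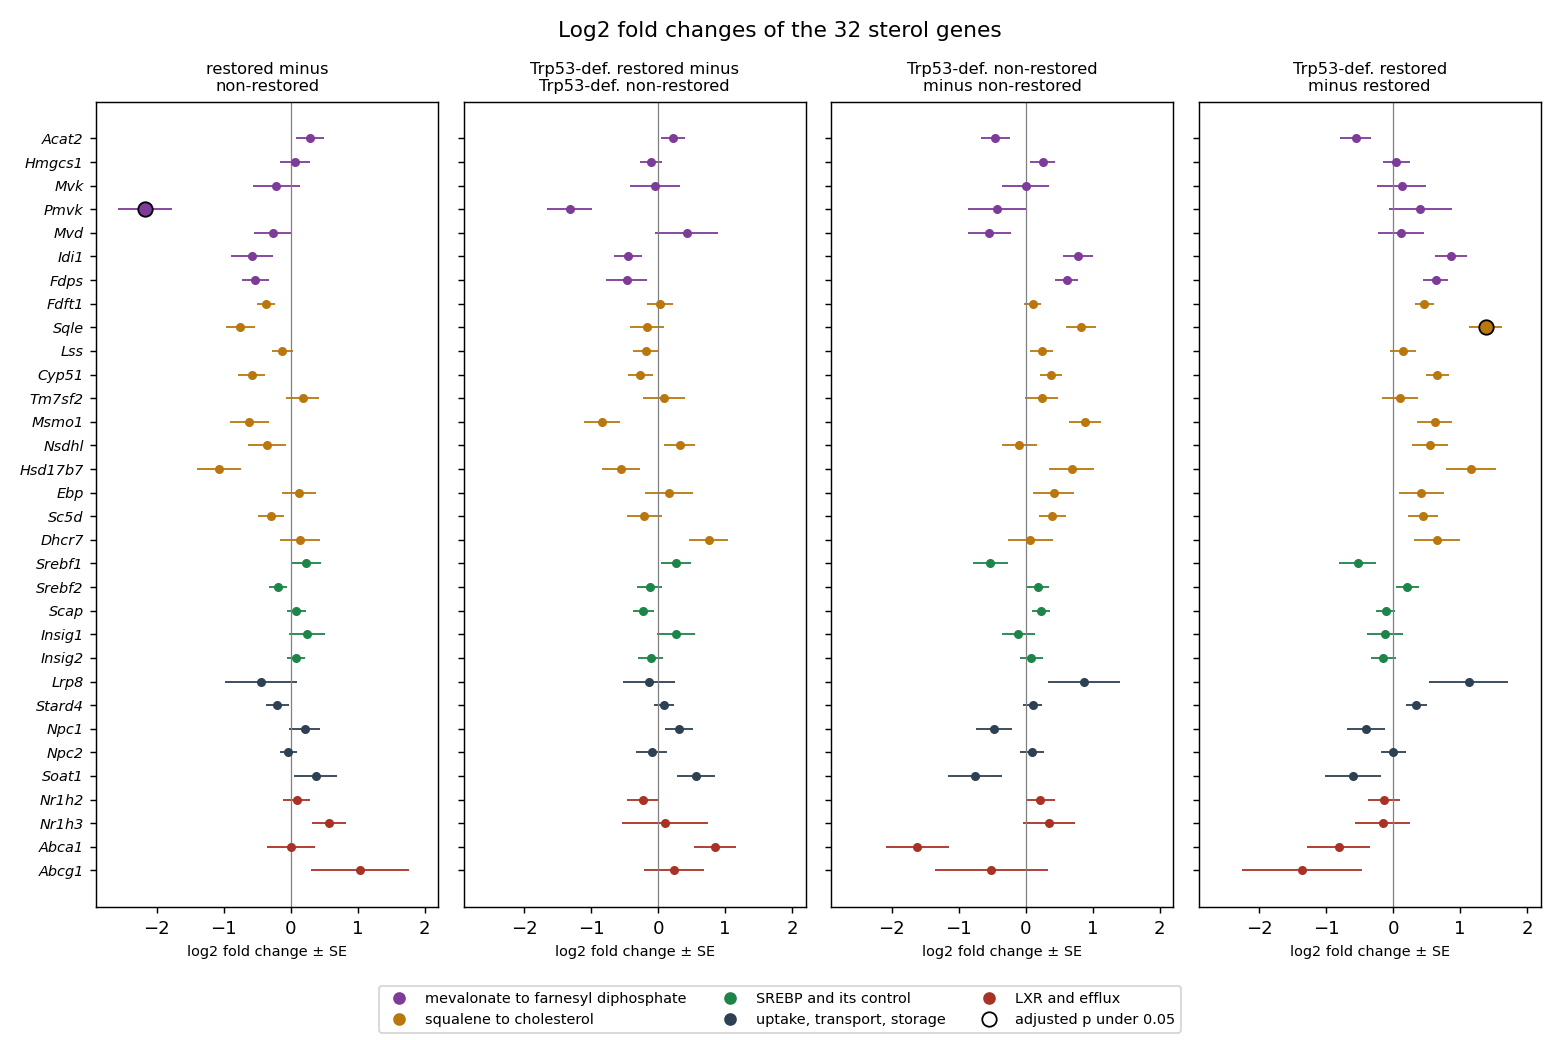
Log2 fold change ± SE (horizontal axes) of the 32 genes (rows, colored by role) in 4 comparisons. Large outlined points passed an adjusted p of 0.05, which were Pmvk at -2.17 between restored and non-restored tumors and Sqle at 1.38 between Trp53-deficient and Trp53 wild-type restored tumors.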

How the data were processed

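Expected counts were estimated by the authors with RSEM 1.2.30 after alignment to mm10 with STAR 2.6.1d, and were deposited per gene without normalization. The deposited TPM values were corrected by RSEM for library size and effective length of each gene. Fold changes, p-values and normalized counts of the authors' own tables were not used, which left 32 columns of per-sample values aside. The members and lists were chosen with earlier results of these data known. An allele that all groups share is not reported here.

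Counts were rounded, libraries of 1 Trp53-deficient animal were summed, and edgeR 4.0.16 was run in R 4.3.3 (filterByExpr, TMM, quasi-likelihood F test with robust fit, adjusted p of 0.05 by Benjamini-Hochberg over all genes tested). CPM were TMM-normalized. One fit held the 21 Trp53 wild-type libraries, one the 8 Trp53-deficient units and one the 25 units without KT. Standard errors are the fold change over the root of F. Values were given for members that passed, for members discussed with them and for at most 3 companion genes that passed per list. Scripts were tested on simulated counts. The low-count ratio interval is exact at a confidence level of 0.95. Locations are from GENCODE M21 and promoter sequences from RefSeq.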

Additional observations from a re-analysis of the deposited data

Results flagged for a closer look

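Sample values were screened in 160 sets of 1 gene and 1 group for a highest or lowest value far from the rest, and chance alone marks about 1 in 20. In all 8 values were marked, which is the number that chance alone gives in 160 sets. Non-restored library 8 was the high value for Sqle (80.7 CPM, others 32.9 to 57.1) and Msmo1 (103 CPM, others 34.6 to 58.5). Non-restored library 4 was high for Ebp, a sterol isomerase (32.9 CPM, others 11.8 to 22.6), and non-restored library 2 for Abcg1 (29.0 CPM, others 0.68 to 9.6).

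Among restored libraries, library 6 was high for Fdps (33.1 CPM, others 24.7 to 28.0), library 7 for Srebf1 (183 CPM, others 80.0 to 118) and library 3 for Srebf2 (85.0 CPM, others 41.1 to 59.4). Trp53-deficient restored library 1 was low for Msmo1 (28.9 CPM, others 53.3 to 57.9).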

How the results depend on the processing

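The 1 call between restored and non-restored tumors became 3 with DESeq2, 3 with sex as a covariate, 3 in female libraries alone, 2 in a fit of the 2 groups alone and 0 against the non-restored tamoxifen libraries alone. Pmvk was called in 27 of 28 alternatives, with adjusted p from 8.80e-07 to 0.0624. The 0 calls between non-restored and KT tumors became 3 with DESeq2 and 1 with length offsets, with the vehicle libraries alone and with the 2 groups alone. Restored against KT gave 1 in female libraries. Between Trp53 backgrounds the 0 of non-restored tumors became 4 with DESeq2 and 2 with libraries not summed, and the 1 of restored tumors became 3 with DESeq2. Leaving out 1 library or animal gave 1 to 1 calls for restored against non-restored, 0 to 1 for each of those groups against KT, 0 to 0 for Trp53-deficient restoration and for the difference of effects, 0 to 7 between Trp53 backgrounds in non-restored tumors (7 without library 8, 2 without Trp53-deficient animal 2) and 0 to 1 in restored tumors. The causes were not tested.

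Replicate numbers were not taken as pairing the samples, since not every pair of same-numbered libraries correlated over 0.1: 5 of 7 pairs of non-restored and restored libraries did (0.06 to 0.48), 1 of 4 of KT and non-restored (-0.03 to 0.12) and 0 of 4 of KT and restored libraries (-0.05 to 0.07). Pairs with different numbers were not compared, so these values cannot settle whether non-restored and restored libraries are paired. With the replicate number as a block the calls stayed at 1, 0 and 0 for the Trp53 wild-type comparisons. Among all genes DESeq2 called 470 of 14830, 1070 of 16348 and 177 of 15841 in those comparisons, where edgeR called 236, 744 and 63 of 12656. In the others DESeq2 called 26 of 14954, 0 of 28692, 432 of 12774 and 214 of 15952. There edgeR called 0 of 12518 and then 0, 82 and 51 of 13705. Over 41 pairs of a gene and a comparison with an unadjusted p under 0.05, 855 alternative values gave 820 with the same call, 33 newly called, 2 no longer called and 0 reversed. Depth limits Lrp8, Abcg1, Mvk, Mvd, Tm7sf2, Msmo1, Nsdhl, Dhcr7, Nr1h2 and Nr1h3, which had under 10 counts in some libraries.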
